A study of Homo sapiens with 16 samples.

Results

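The cancer-testis antigen families MAGEA, MAGEB, MAGEC, GAGE, SSX, XAGE, PAGE, CTAG and CT45A were followed on expression arrays of 2 myeloma cell lines treated with inhibitors of EZH2 and G9a. Members were taken by name, as every non-control probe whose gene name began with one of these stems, which gave 77 probes for 55 gene names out of 50599 probes for 34423 gene names. A stem also catches unrelated genes, and 15 of the 77 probes named SSX2IP or a CTAGE gene, which share only the letters. Below, counts of members cover all 77 probes, and counts of family probes leave these 15 out. The remaining 62 probes named 47 family genes, and all 62 lay on chromosome X (GRCh37). They comprised 12 MAGEA, 12 MAGEB, 5 MAGEC, 2 CTAG, 3 CT45A, 3 GAGE, 6 PAGE, 6 XAGE and 13 SSX probes.

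RPMI-8226 and MM.1S, established human plasma cell myeloma lines, were kept for 6 days in the vehicle DMSO, in GSK126 at 1 µM, in UNC0638 at 1 µM, or in both inhibitors at 1 µM each. GSK126 blocks EZH2, which methylates histone H3 at lysine 27, and UNC0638 blocks G9a, which methylates histone H3 at lysine 9. Each of the 8 groups held 2 arrays of separate biological replicates of the line, 16 one-colour arrays in all. No allele or other agent was named for any group, and each line stands for 1 tumour.

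Cancer-testis antigens are proteins normally made in male germ cells and silent in most other adult tissues, but switched on in many tumours, myeloma among them. Their promoters are held silent by DNA methylation together with repressive histone marks, which is why their response to inhibitors of histone methylation is of interest. The type I MAGE proteins (MAGEA, MAGEB, MAGEC) bind RING ubiquitin ligases, the SSX proteins are nuclear repressors of transcription, CTAG1A and its copy CTAG1B encode NY-ESO-1, and GAGE, PAGE and XAGE are related families of small acidic proteins.

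The windows printed here are the 250 bases before the first RefSeq start site of genes on which the results turn, with every CpG in capitals, because CpG methylation at these promoters is the known lock on the families. Probes named SSX1, SSX4B, XAGE3, PAGE1, PAGE2B and MAGEA6 rose in RPMI-8226, and MAGEC3 rose in MM.1S. The PAGE2B probe that rose also lists PAGE2 and PAGE5, so which of these genes rose cannot be told.
SSX1 (GRCh38.p14, chrX:48255142-48255391, strand plus): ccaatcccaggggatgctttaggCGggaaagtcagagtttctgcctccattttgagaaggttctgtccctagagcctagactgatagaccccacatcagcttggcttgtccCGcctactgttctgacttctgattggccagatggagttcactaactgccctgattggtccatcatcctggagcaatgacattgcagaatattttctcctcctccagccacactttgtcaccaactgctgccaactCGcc
SSX4B (GRCh38.p14, chrX:48411961-48412210, strand minus): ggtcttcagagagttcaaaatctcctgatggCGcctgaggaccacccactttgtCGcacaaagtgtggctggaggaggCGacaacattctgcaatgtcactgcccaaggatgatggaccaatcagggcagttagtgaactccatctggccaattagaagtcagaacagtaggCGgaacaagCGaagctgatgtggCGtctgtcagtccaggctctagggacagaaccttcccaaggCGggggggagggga
XAGE3 (GRCh38.p14, chrX:52868084-52868333, strand minus): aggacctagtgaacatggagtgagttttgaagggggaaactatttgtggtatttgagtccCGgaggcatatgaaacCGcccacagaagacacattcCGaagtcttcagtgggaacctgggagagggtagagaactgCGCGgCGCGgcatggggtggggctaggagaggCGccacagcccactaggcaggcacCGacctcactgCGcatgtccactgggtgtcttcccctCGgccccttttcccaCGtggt
PAGE1 (GRCh38.p14, chrX:49695985-49696234, strand minus): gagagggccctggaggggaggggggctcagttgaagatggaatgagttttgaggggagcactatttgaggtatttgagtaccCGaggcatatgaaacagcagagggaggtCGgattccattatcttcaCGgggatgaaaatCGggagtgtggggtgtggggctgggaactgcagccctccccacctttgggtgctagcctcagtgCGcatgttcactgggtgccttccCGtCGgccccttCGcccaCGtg
PAGE2B (GRCh38.p14, chrX:55074780-55075029, strand plus): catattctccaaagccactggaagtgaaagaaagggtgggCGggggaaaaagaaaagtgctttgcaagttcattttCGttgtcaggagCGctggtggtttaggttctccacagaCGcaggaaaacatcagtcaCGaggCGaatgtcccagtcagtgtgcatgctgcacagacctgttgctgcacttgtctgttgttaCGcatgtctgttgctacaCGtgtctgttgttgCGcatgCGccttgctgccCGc
MAGEA6 (GRCh38.p14, chrX:152769690-152769939, strand minus): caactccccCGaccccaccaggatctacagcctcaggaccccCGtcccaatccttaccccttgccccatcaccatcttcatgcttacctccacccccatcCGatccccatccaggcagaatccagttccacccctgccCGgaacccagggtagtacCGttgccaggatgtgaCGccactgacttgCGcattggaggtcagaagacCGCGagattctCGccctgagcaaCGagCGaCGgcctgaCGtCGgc
MAGEC3 (GRCh38.p14, chrX:141894416-141894665, strand plus): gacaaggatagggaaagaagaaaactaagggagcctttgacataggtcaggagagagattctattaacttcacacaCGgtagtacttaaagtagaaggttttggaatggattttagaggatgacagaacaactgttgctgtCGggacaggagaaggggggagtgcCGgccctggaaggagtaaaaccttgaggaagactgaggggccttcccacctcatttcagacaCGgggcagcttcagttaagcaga

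These windows held from 3 CpGs (SSX1) to 15 (MAGEA6), and the median over 35116 RefSeq promoter windows was 11. Over the 73 windows listed for family genes the median was 8, with a range of 1 to 18. The MAGEA6 window matched that of its copy MAGEA3 at all 250 bases, so the 2 genes cannot be told apart by this stretch. The SSX1 and SSX4B windows shared a run of 47 bases, but on opposite strands, so this block runs toward one start site and away from the other. The letters GCGCATG, searched on both strands, were in all 13 GAGE windows, 5 of 7 PAGE windows and 7 of 10 XAGE windows, against 3.77% of all windows. None of the SSX, MAGEA, MAGEB or MAGEC windows held them. The letters CCGGATGT, an Ets-type sequence known from MAGEA promoters, were in 13 of 16 MAGEA, 2 of 3 MAGEC and 3 of 12 MAGEB windows against 0.592% of all windows. The letters CCAAT were in all 8 SSX, 11 of 16 MAGEA and 4 of 7 PAGE windows against 32% of all. These searches were chosen after the windows had been read and describe only the letters.

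What the arrays measured was binding to 60-base probes, and several are printed because copies of a gene differ little within them. In the MAGEA6 and MAGEA12 probes the capitals mark 31 bases that align without a gap, of which 28 were identical. In the other probes no base is marked.
XAGE1A (A_24_P271696, GRCh37, chrX:52241141-52241200, strand plus): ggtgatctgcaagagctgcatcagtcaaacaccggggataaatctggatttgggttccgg
XAGE3 (A_23_P114349, GRCh37, chrX:52893821-52893880, strand minus): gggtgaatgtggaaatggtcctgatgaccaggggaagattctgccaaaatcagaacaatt
PAGE1 (A_24_P314337, GRCh37, chrX:49458768-49459333, strand minus): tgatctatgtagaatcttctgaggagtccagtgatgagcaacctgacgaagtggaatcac
PAGE2 (A_32_P70927, GRCh37, chrX:55117033-55117813, strand plus): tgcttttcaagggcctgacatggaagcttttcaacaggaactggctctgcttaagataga
PAGE2B (A_33_P3420862, GRCh37, chrX:55103897-55103956, strand plus): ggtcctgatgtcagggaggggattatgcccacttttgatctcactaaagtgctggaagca
MAGEA6 (A_23_P136870, GRCh37, chrX:151870169-151870228, strand plus): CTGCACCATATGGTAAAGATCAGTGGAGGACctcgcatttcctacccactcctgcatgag
MAGEA12 (A_23_P252928, GRCh37, chrX:151899912-151899971, strand minus): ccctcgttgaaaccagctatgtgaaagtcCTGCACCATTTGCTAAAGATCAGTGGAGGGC
MAGEC3 (A_23_P502081, GRCh37, chrX:140985272-140985473, strand plus): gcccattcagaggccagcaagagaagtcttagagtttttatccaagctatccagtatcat

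Copies were a general limit. Of the 62 family probes, 20 listed transcripts of over 1 gene among the at most 4 accessions given to a probe. Both MAGEA6 probes also listed MAGEA3, both MAGEA2B probes listed MAGEA2, and the CTAG1A probe listed CTAG1B. The CTAG2 probe listed CTAG1A and CTAG1B, one PAGE2B probe listed PAGE2 and PAGE5, and the SSX4B probes listed SSX4. No probe was named MAGEA3 or CTAG1B, so those genes have no value of their own here. A gene name below stands for all the copies its probe lists.

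Levels are given as the log2 signal minus the 75th percentile of log2 signals on the same array, so 0 is the brightness of a probe at that percentile, and values of different probes are not set against each other. A probe counted as measured where the scanner software marked it well above background. Of all spots, 46.5 to 49.7% were so marked on the RPMI-8226 arrays and 49.9 to 52.8% on the MM.1S arrays, and none was saturated. All 7 plasma cell markers (SDC1, TNFRSF17, IRF4, PRDM1, XBP1, SLAMF7, CD38) were well above background on all arrays of both lines. Of 5 male germ cell markers (DDX4, PRM1, PRM2, TNP1, SYCP3), 4 were above background on no RPMI-8226 array and 3 on no MM.1S array. SYCP3 was above it on all 8 MM.1S arrays and 2 RPMI-8226 arrays, and PRM2 on 2 MM.1S arrays. Of the markers of other cell types, CD3D and CD2 (T cell), CD14 (myeloid) and KRT18 (epithelial) were above background on all arrays of both lines, and CSF1R (myeloid), EPCAM (epithelial) and DCN (fibroblast) on all RPMI-8226 arrays. In MM.1S CSF1R was above it on 0 of 8 arrays, DCN on 3 and EPCAM on 4, and CD3E was above it on 4 arrays of RPMI-8226 and 5 of MM.1S. The part of these markers in the results was not tested. All RPMI-8226 arrays shared a slide and all MM.1S arrays another, so line and slide cannot be told apart.

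The DMSO groups showed how many family members each line already expressed. In RPMI-8226, 20 of 62 family probes (17 genes) were well above background on both DMSO arrays, against 42% of all probes on the array. In MM.1S it was 14 of 62 (13 genes), against 45.5% of all probes. On no array were 26 of the 62 above background, and these included both MAGEC1 probes, both MAGEC2 probes, MAGEA11, GAGE1 and most MAGEB probes. On all 16 arrays 10 probes were above background.

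With both inhibitors the number in RPMI-8226 was 26 of 62 (22 genes) on both arrays, and with either inhibitor alone it was 22. Of the 41 family probes at background on both DMSO arrays of RPMI-8226, 6 (14.6%) were above it on both combination arrays, against 3.21% of all probes at background in DMSO. The 6 were SSX1, XAGE3, 2 of the 3 SSX4B probes, PAGE2 and 1 of the 2 PAGE2B probes. No family probe went from both DMSO arrays to neither treated array in either line. In MM.1S the count stayed at 14 of 62 with both inhibitors, and MAGEB18 was the 1 of 47 (2.13%) that was gained, against 3.9% of all such probes. The map of detection by group shows the gains in the RPMI-8226 column for both inhibitors, in the SSX, PAGE and XAGE rows.

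**Figure D1:**
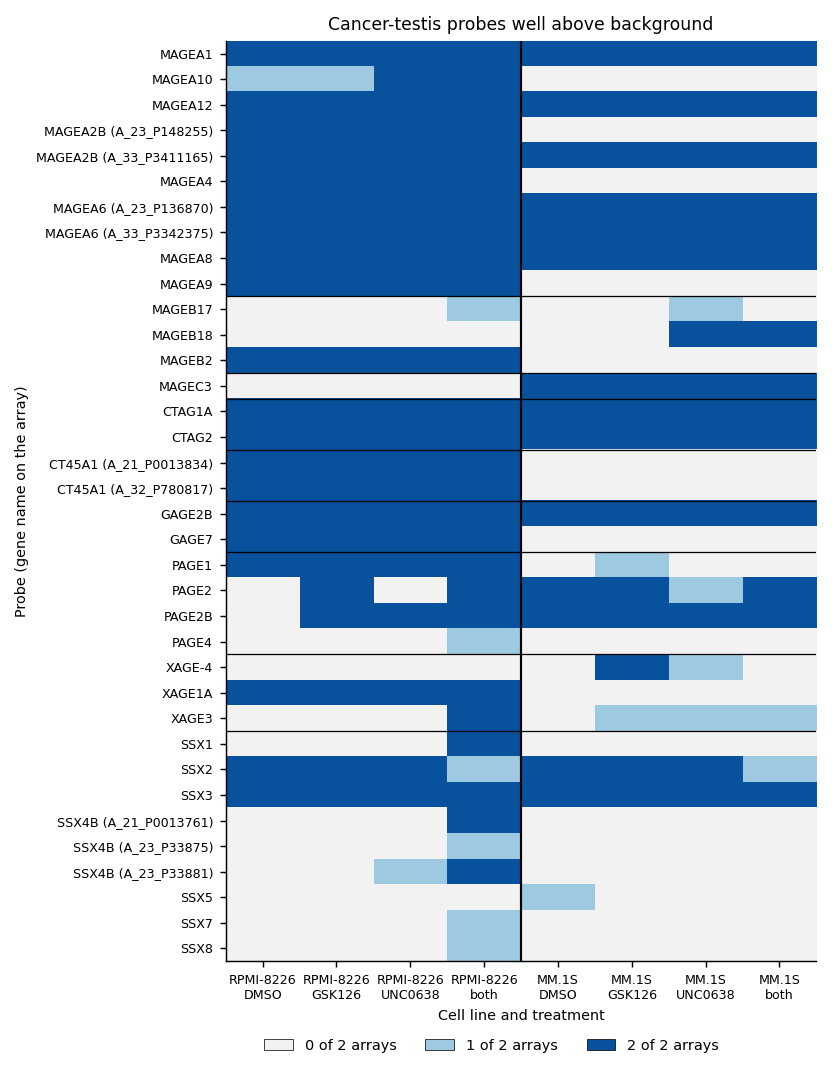
Number of arrays, 0, 1 or 2 of 2, on which each family probe (rows, grouped by family) was well above background in each cell line and treatment (columns; both is GSK126 with UNC0638). The 36 probes above background on at least 1 array are drawn, and SSX1, XAGE3 and 2 SSX4B probes are dark only in the RPMI-8226 column for both inhibitors, where XAGE3 alone is also pale in MM.1S.

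In RPMI-8226 the combination raised members of the SSX, XAGE, PAGE and MAGEA families, while neither inhibitor alone gave a call in the main fit, which did not pair replicates. With the replicate number as a block, 2 members were higher with GSK126 and 6 with UNC0638, against 1.88% and 1.33% of all. The counts below are from the main fit. Of the 77 probes, 38 passed the filter (measured on the 2 arrays of 1 group or more), 27 of them family probes. In limma with Benjamini-Hochberg adjustment, 11 were higher with both inhibitors than with DMSO at an adjusted p under 0.05 and 0 were lower, against 7.2% and 5.17% of 23199 tested probes. All 11 were family probes and none of the 11 SSX2IP or CTAGE probes tested was called. The filter bears on this count, since 4 probes (SSX1, XAGE3 and 2 for SSX4B) passed it only through the combination group and so had to differ. PAGE2, PAGE2B A_33_P3420862 and MAGEA10 also passed it through treated groups only, which favoured a rise over DMSO in advance. Of these 7 probes, 6 were called higher, all but MAGEA10. Of the 20 family probes measured on both DMSO arrays, 5 were called higher. Without DMSO replicate 1, and likewise without combination replicate 1, 6 members were called in place of 11. Calls over all tested probes fell in these fits too. Whether a difference came from more RNA per cell or from more cells expressing a gene cannot be told apart in bulk RNA.

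Of the SSX genes, whose proteins repress transcription in the nucleus, SSX1 and SSX4B rose with both inhibitors. SSX1 (chrX:48126476-48126535, GRCh37, plus strand) read -5.43 and -6.18 with DMSO, -6.13 and -6.36 with GSK126, and -6.22 and -6.43 with UNC0638, none above background. On the combination arrays it read -1.69 and -2.35, both above background and apart from the other 6 arrays. That was at least 5.18-fold higher than DMSO, taking the dim arrays at the lowest measurable signal (adjusted p = 0.00113, limma). It was also at least 4.49-fold higher than GSK126 alone (adjusted p = 0.00215, limma) and at least 5.24-fold higher than UNC0638 alone (adjusted p = 0.00177, limma). In MM.1S SSX1 lay between -6.86 and -6.68 on the 8 arrays and was never above background.

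SSX4B followed the same course on the 2 probes that passed the filter. Probe A_23_P33881 read -6.49 and -6.23 with DMSO, -4.55 and -6.36 with GSK126, -4.08 and -6.40 with UNC0638, and -1.61 and -1.93 with both. Only 1 of the single-inhibitor arrays, UNC0638 replicate 1, was above background, and the combination arrays lay above all others. The rise over DMSO was at least 6.16-fold (adjusted p = 0.0186, limma), and for A_21_P0013761 it was at least 2.47-fold (adjusted p = 0.0104, limma). The call for A_23_P33881 was lost without either DMSO array or either combination array, and that for A_21_P0013761 without replicate 1 of either group. The remaining SSX4B probe was above background on 1 combination array only, as were 1 probe each for SSX7 and SSX8.

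The other SSX probes were not called. One SSX3 probe, which also lists SSX2 and SSX2B, lay between -3.10 and -2.30 on all RPMI-8226 arrays and the other was at background throughout. An SSX2 probe lay between -4.28 and -3.36, at background on 1 combination array, and the other SSX2 probe was at background on all. Probes for 1 gene name thus differed in whether they were above background.

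XAGE3, of the XAGE family, was also seen only with both inhibitors. It read -6.40 and -5.95 with DMSO, -5.74 and -5.94 with GSK126, -6.00 and -6.01 with UNC0638, and -2.69 and -2.60 with both. The first 6 arrays were at background and the combination arrays were not, a rise of at least 3.35-fold (adjusted p = 0.000299, limma). Against GSK126 alone it was at least 2.90-fold higher (adjusted p = 0.000906, limma) and against UNC0638 alone at least 3.39-fold (adjusted p = 0.000754, limma). The size of a rise from background depended on how background was treated, and under normexp correction the log2 differences were 1.06 for SSX1, 0.78 for XAGE3, 1.30 for SSX4B A_23_P33881 and 0.66 for A_21_P0013761, all still called. For the PAGE2 and PAGE2B probes described next they were 1.04 and 1.13, also called.

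XAGE1A, its relative, was already expressed and rose in steps. It read -0.29 and -0.90 with DMSO, 1.07 and 0.67 with GSK126, 0.88 and 0.32 with UNC0638, and 2.12 and 1.66 with both. Every single-inhibitor array lay above both DMSO arrays, and the combination arrays lay above all of these. The rise with both was 5.62-fold (log2 2.49, SE 0.31, adjusted p = 0.00501, limma). GSK126 alone read 2.77-fold over DMSO (adjusted p = 0.14, limma) and UNC0638 alone 2.30-fold (adjusted p = 0.219, limma), and with the replicate number as a block both passed (adjusted p = 0.00994 and 0.0141).

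The PAGE2 probe and PAGE2B probe A_33_P3420862, named for neighbouring genes of the PAGE family, rose with both inhibitors and read higher with GSK126 than with DMSO. PAGE2 read -5.16 and -4.78 with DMSO, -3.74 and -3.31 with GSK126, -4.67 and -4.75 with UNC0638, and -2.10 and -1.77 with both. The DMSO arrays and, just above them, the UNC0638 arrays were at background, while GSK126 and combination arrays were above it and apart. With both inhibitors PAGE2 was at least 5.50-fold higher than DMSO (adjusted p = 0.000737, limma), and with GSK126 alone at least 1.83-fold (adjusted p = 0.0544, and 0.0187 with the replicate block, limma).

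The PAGE2B probe, which also lists PAGE2 and PAGE5, read -4.35 and -4.13 with DMSO, -3.09 and -3.20 with GSK126, -3.71 and -4.05 with UNC0638, and -1.58 and -1.31 with both. All treated arrays were above background and above both DMSO arrays. The combination was at least 6.96-fold higher than DMSO (adjusted p = 0.000563, limma) and GSK126 alone at least 2.13-fold (adjusted p = 0.0797, limma). Adding UNC0638 to GSK126 raised it 3.26-fold (adjusted p = 0.00727, limma). The other PAGE2B probe, A_32_P109683, which lists PAGE5 and not PAGE2, was at background on all arrays. It read -6.34 and -4.89 with DMSO and -5.63 and -5.39 with both.

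PAGE1 was measured on all RPMI-8226 arrays. It read -0.21 and -0.97 with DMSO, 0.18 and 0.08 with GSK126, 0.95 and 0.65 with UNC0638, and 1.35 and 1.42 with both. The groups did not overlap and stood in that order. The combination was 3.95-fold over DMSO (log2 1.98, SE 0.26, adjusted p = 0.00607, limma) and UNC0638 alone read 2.62-fold over it (adjusted p = 0.0995, and 0.0427 with the replicate block, limma).

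Of 12 MAGEA probes, whose products direct ubiquitin ligases to new targets, 3 were called higher with both inhibitors, 2 for MAGEA6 and 1 for MAGEA2B, and for these 3 the UNC0638 arrays read close to the combination arrays. MAGEA6 probe A_33_P3342375, for MAGEA6 and MAGEA3, read -2.63 and -1.63 with DMSO, -3.18 and -1.56 with GSK126, 0.59 and 1.32 with UNC0638, and 0.75 and 1.43 with both. The UNC0638 and combination arrays overlapped each other and lay above the other 4. The combination was 9.34-fold over DMSO (log2 3.22, SE 0.60, adjusted p = 0.021, limma) and 11-fold over GSK126 alone (adjusted p = 0.0395, limma). UNC0638 alone was 8.48-fold over DMSO with an adjusted p of 0.112 in limma, which with the replicate block was 0.00597. Under normexp correction the combination's log2 difference from DMSO was 2.43 and still called. The call against DMSO was lost without DMSO replicate 1 (log2 2.73) and without either combination array (3.57 and 2.88), and that against GSK126 on leaving out 7 of the 8 arrays in turn.

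The other MAGEA6 probe, A_23_P136870, lists the same 2 genes but moved less. It read -0.36 and -0.45 with DMSO, -0.43 and -0.38 with GSK126, 0.13 and 0.29 with UNC0638, and 0.14 and 0.35 with both. Again the UNC0638 and combination arrays lay together above the rest, and the combination was 1.57-fold over DMSO (adjusted p = 0.0358, limma), a call that was lost on leaving out any 1 array. The 2 probes thus agreed on the order of the groups and not on the size.

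MAGEA2B probe A_23_P148255 read 1.11 and 1.00 with DMSO, 0.76 and 1.23 with GSK126, 2.02 and 2.34 with UNC0638, and 1.80 and 2.29 with both. It was 1.99-fold higher with both inhibitors (adjusted p = 0.0447, limma), a call kept in only 1 of 8 fits that left out an array. MAGEA9 read 1.45 and 1.94 with DMSO, 2.30 and 2.66 with UNC0638, and 2.52 and 2.90 with both, with an adjusted p of 0.0594 for the combination and 0.0048 with the replicate block (limma). MAGEA4, MAGEA1 and MAGEA12 were measured on every RPMI-8226 array and were not called.

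**Figure D2:**
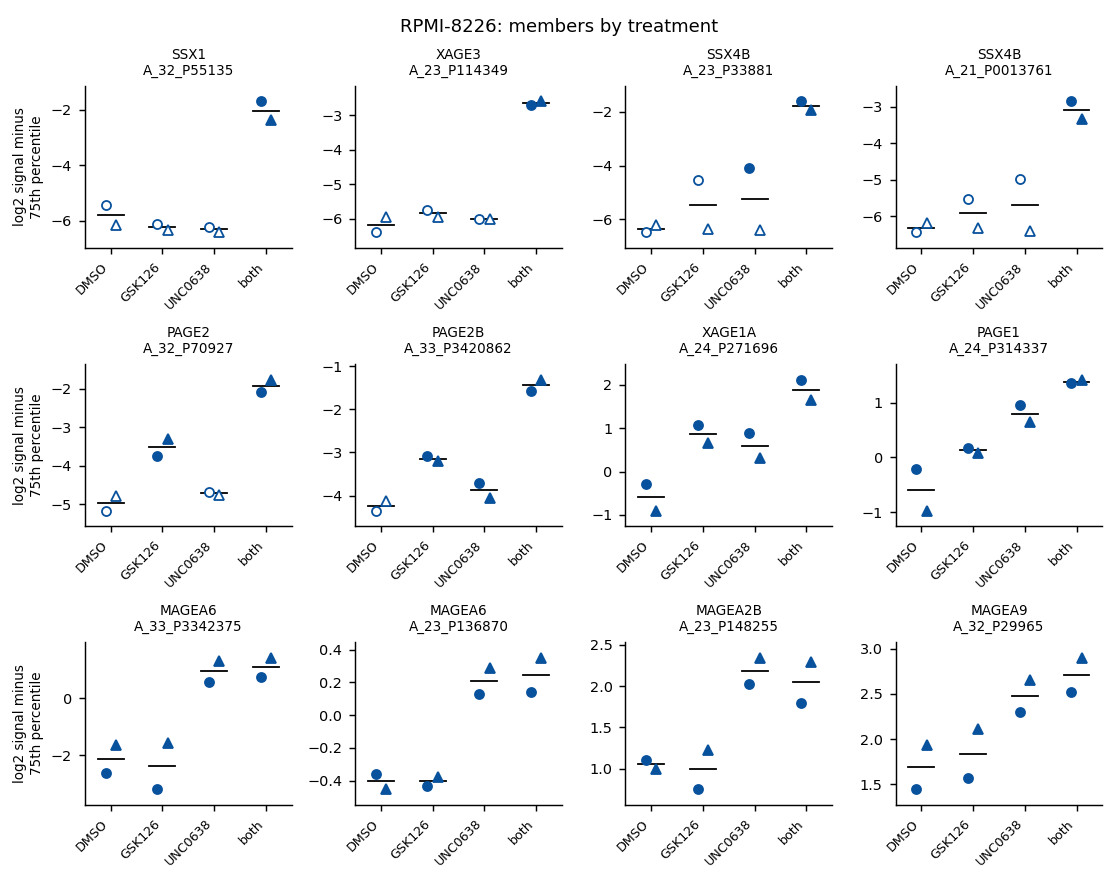
Log2 signal minus the array's 75th percentile (vertical axes, 1 panel a probe, scales differ) in RPMI-8226 by treatment, with replicate 1 as circles, replicate 2 as triangles, filled where well above background, and lines at the means of 2 arrays. SSX1 and XAGE3 are filled only with both inhibitors, PAGE2 also with GSK126, and the MAGEA6 probes stand higher with UNC0638 and with both.

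The inhibitors alone and together were then compared directly. With GSK126 alone 0 of 38 probes were called against DMSO (0.599% of all tested), with 5 at an unadjusted p under 0.05, and with UNC0638 alone 0 (0.634% of all) with 6. The replicate numbers pair the RPMI-8226 arrays. With the number as a block 2 were higher with GSK126 (PAGE2 and XAGE1A), against 1.88% of all. With UNC0638 6 were higher (MAGEA6 A_33_P3342375, MAGEA10, MAGEA2B A_23_P148255, MAGEA9, PAGE1 and XAGE1A), against 1.33% of all. The combination exceeded GSK126 alone for 6 probes (2.01% of all were higher) and UNC0638 alone for 5 (2.69%). With the block these were 12 and 8, against 3.83% and 5.11% of all, and against DMSO 15 were higher and 3 lower (20.5% of all called). The 5 over UNC0638 were SSX1, SSX4B A_21_P0013761, XAGE3, PAGE2 and PAGE2B. Of these, SSX1, XAGE3 and the SSX4B probe passed the filter only through the combination group and so had to differ. PAGE2 passed it only through the GSK126 and combination groups, which favoured its rise over UNC0638. The 6 over GSK126 were the same 5 and MAGEA6 A_33_P3342375. For that MAGEA6 probe the combination differed from UNC0638 alone by 0.14 on the log2 scale (SE 0.60, limma), which does not show that they act alike. Leaving out replicate 1 of GSK126 or of the combination left 3 calls over GSK126 in place of 6. All these comparisons share arrays with each other, the DMSO arrays among them.

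Most called members lay in one stretch of the chromosome, but the filter favoured most of the calls there. Of 12 tested family probes between 48 and 56 Mb of chromosome X (GRCh37), where the SSX, GAGE, PAGE and XAGE genes lie, 8 were higher with both inhibitors in RPMI-8226. Of these, 4 (SSX1, XAGE3 and 2 for SSX4B) passed the filter only through the combination group, and PAGE2 and PAGE2B A_33_P3420862 only through treated groups. Of the probes there measured on both DMSO arrays, XAGE1A and PAGE1 were called, while GAGE2B, GAGE7, SSX2 and SSX3 were not. Of the 88 other tested probes in that stretch 7 were higher (7.95%). In the stretch near the end of the long arm that holds the MAGEA and CTAG genes, 3 of 12 family probes and 7 of 90 others (7.78%) were higher. On the rest of the chromosome, outside the 4 stretches with family genes, 8.97% of 513 probes were higher.

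MM.1S responded differently. With GSK126 alone 1 of 28 tested probes was called higher, and 5.19% of all 25102 tested probes were. With UNC0638 alone 4 were higher and 6 lower, against 12.8% and 16.5% of all. With both inhibitors 2 were higher and 11 lower, against 22.2% and 31.7% of all. The balance turned with the scaling, since with the percentile taken over probes measured on all arrays 3 members were higher and 6 lower, and 7717 of all probes were higher and 5031 lower. Leaving out any DMSO, GSK126 or UNC0638 array of MM.1S left 4 to 6 calls for UNC0638 in place of 10. Leaving out SSX2IP and the CTAGE genes, 16 family probes were tested, with 3 higher and 6 lower for UNC0638 and 2 higher and 9 lower for both inhibitors. Among the higher ones, MAGEB18 passed the filter only through the groups with UNC0638.

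MAGEC3, a type I MAGE gene, rose wherever UNC0638 was present. It read -2.02 and -2.28 with DMSO, -2.51 and -2.43 with GSK126, -0.12 and -0.18 with UNC0638, and -0.32 and -0.17 with both. All 8 arrays were above background, and the 4 with UNC0638 lay above the 4 without. UNC0638 raised it 4-fold (SE 0.11 on the log2 scale, adjusted p = 0.000614, limma) and the combination 3.74-fold (log2 1.90, SE 0.11, adjusted p = 0.000192, limma). In RPMI-8226 it lay between -6.38 and -5.80 and was never above background.

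MAGEB18, of the MAGEB cluster on the short arm, was at background with DMSO (-6.15 and -5.77) and with GSK126 (-7.01 and -6.55). With UNC0638 it read -3.81 and -3.30 and with both -3.85 and -3.64, all 4 above background. The rise was at least 2.35-fold with UNC0638 (adjusted p = 0.00263, limma) and at least 2.05-fold with both (adjusted p = 0.000869, limma). MAGEB18 passed the filter only through the groups with UNC0638, so its direction against DMSO and GSK126 was favoured in advance. Under normexp correction its log2 difference with both was 0.52 and that of MAGEC3 1.34, both still called. Neither gene was called between the combination and UNC0638 alone, a comparison in which 0 of 28 members passed (13.5% of all tested, 9 members at an unadjusted p under 0.05, limma).

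GAGE2B, a GAGE probe that lists GAGE10 and GAGE13, rose by 0.70 with GSK126 (SE 0.15, adjusted p = 0.0485, limma) and by 0.57 with UNC0638 (SE 0.15, adjusted p = 0.0367, limma). It read 0.27 and 0.34 with DMSO, 1.10 and 0.91 with GSK126, 0.96 and 0.78 with UNC0638, and 0.54 and 0.91 with both. The treated arrays lay above both DMSO arrays, but both calls were lost on leaving out any DMSO, GSK126 or UNC0638 array, with no filter, with the replicate block and in the fit over all 16 arrays.

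CTAG1A, the NY-ESO-1 probe, fell in MM.1S. It read 0.37 and 0.31 with DMSO, 0.20 and 0.15 with GSK126, -0.57 and -0.66 with UNC0638, and -0.84 and -0.88 with both. The groups did not overlap. The combination was 2.30-fold lower than DMSO (SE 0.08 on the log2 scale, adjusted p = 0.000227, limma) and UNC0638 1.95-fold lower (adjusted p = 0.00138, limma). CTAG2, read by a probe that shares its listed transcripts, fell 1.95-fold with both (adjusted p = 0.00188, limma).

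Of 6 tested MAGEA probes, 5 fell in MM.1S with both inhibitors, where 31.7% of all tested probes were called lower. MAGEA12 read -0.09 and -0.24 with DMSO and -0.95 and -1.16 with both, 1.85-fold lower (adjusted p = 0.00197, limma). MAGEA2B probe A_33_P3411165 read -1.11 and -1.55 with DMSO and -2.22 and -2.34 with both, 1.93-fold lower (adjusted p = 0.00487, limma). MAGEA1 read 3.63 and 3.31 with DMSO and 2.92 and 2.56 with both, and MAGEA8 read 1.55 and 1.25 with DMSO and 0.95 and 0.54 with both. No combination array of these 4 probes overlapped a DMSO array. MAGEA1 fell by 0.73, MAGEA8 by 0.65 and MAGEA6 A_33_P3342375 by 0.84 on the log2 scale (adjusted p = 0.0148, 0.0237 and 0.00758, limma), while MAGEA6 A_23_P136870 was not called. With the percentile taken over probes measured on all arrays, which moved the median of all tested probes from -0.12 to 0.10, the calls for MAGEA1, MAGEA8 and PAGE2 were lost.

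PAGE2 and the PAGE2B probe that also lists PAGE2 fell in MM.1S, opposite to RPMI-8226, and the other 4 PAGE probes were not tested there. PAGE2B read -3.18 and -3.07 with DMSO, -2.90 and -2.76 with GSK126, -3.80 and -4.00 with UNC0638, and -3.60 and -3.75 with both. Arrays with UNC0638 lay below all others, 1.71-fold lower than DMSO with UNC0638 alone (adjusted p = 0.00626, limma) and 1.47-fold with both (adjusted p = 0.00724, limma). PAGE2 fell by 1.32 with UNC0638 and by 0.69 with both on the log2 scale (adjusted p = 0.00968 and 0.0398, limma), with 1 of the 2 UNC0638 arrays at background. Between the combination and GSK126 alone, 2 members were higher and 7 lower, against 15.1% and 22% of all tested. Of these, 2 and 6 were family probes.

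**Figure D3:**
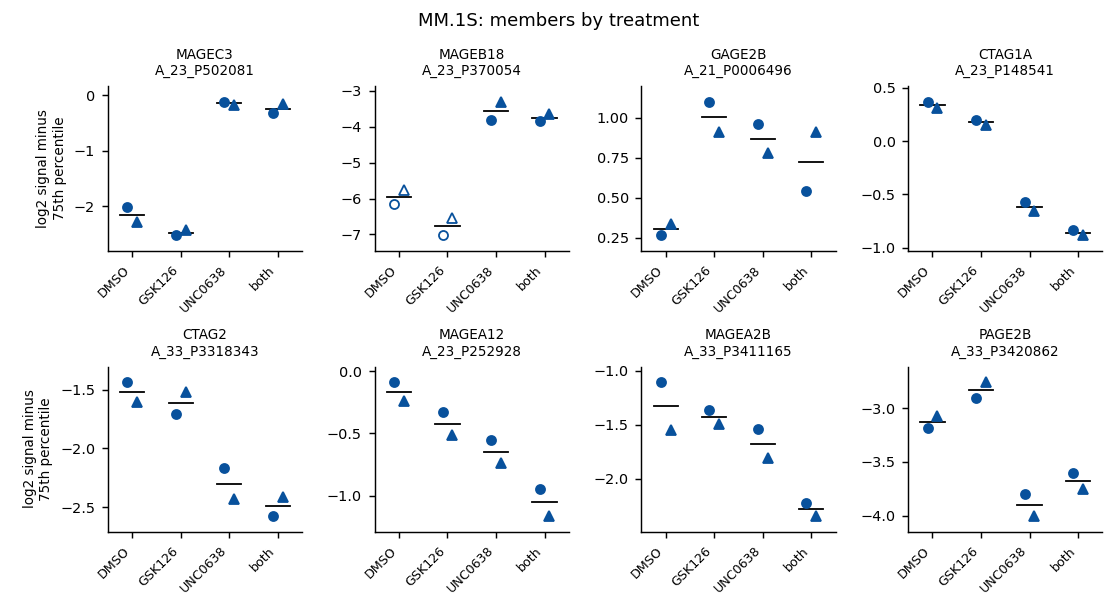
Log2 signal minus the array's 75th percentile (vertical axes, 1 panel a probe, scales differ) in MM.1S by treatment, with symbols as for RPMI-8226. MAGEC3 and MAGEB18 stand higher with UNC0638 and with both inhibitors, while CTAG1A, CTAG2, MAGEA12 and PAGE2B stand lower.

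The lines were compared at baseline and in their responses. Between the DMSO groups 18 of 42 tested members were higher in RPMI-8226 and 6 in MM.1S, against 28.4% and 29.3% of all 26931 tested probes. Of 30 family probes it was 16 and 6. The filter bears on these counts. GAGE7, MAGEA9, MAGEA2B A_23_P148255, MAGEA4, MAGEA10, MAGEB2, XAGE1A, PAGE1, SSX1 and CT45A1 passed it only through RPMI-8226 groups. MAGEC3 passed it only through MM.1S groups, so the direction of these was favoured in advance. With signal above background required on all arrays, 7 of 19 were higher in RPMI-8226 and 3 in MM.1S, beside 5893 and 5362 of 18475 probes. CTAG1A, measured on all arrays, read 5.93 and 5.24 in RPMI-8226 against 0.37 and 0.31 in MM.1S, 37.8-fold higher (adjusted p = 1.23e-08, limma). GAGE7 was at least 293-fold higher, MAGEA9 at least 89.3-fold, MAGEA2B A_23_P148255 at least 57.1-fold and PAGE1 at least 18.3-fold, with no MM.1S DMSO array above background (largest adjusted p = 1.01e-05, limma). Under normexp correction these log2 differences were 6.07, 4.60, 3.86 and 2.57, all still called. The other MAGEA2B probe, A_33_P3411165, lists the same genes, was above background on all 16 arrays and was not called between the DMSO groups. Its DMSO means were -1.16 in RPMI-8226 and -1.33 in MM.1S. The MAGEA2B probes thus disagreed at baseline, and the fold holds for A_23_P148255 only.

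Higher in MM.1S were MAGEA1, by 1.97-fold (adjusted p = 0.00413, limma), and MAGEA8, by 2.04-fold (adjusted p = 0.00297, limma). MAGEC3, PAGE2 and PAGE2B were above background with DMSO in MM.1S only, by at least 4.74-fold, 1.74-fold and 2.17-fold. Under normexp correction the calls for PAGE2 and PAGE2B were lost (log2 -0.07 and -0.06, adjusted p = 0.623 and 0.683, limma), and that for MAGEC3 held at -0.86. SSX1 and XAGE3 also passed the test, but as both DMSO groups were at background for each, these are not differences in expression and no fold is given.

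The test of the difference in response found 0 of 42 members for GSK126 (0.783% of all, 6 at an unadjusted p under 0.05, limma). For UNC0638 it found 4 with a more positive response in RPMI-8226 and 1 in MM.1S, against 1.11% and 1.79% of all. For the combination it found 12 and 2, against 7.28% and 6% of all. Of the 12, SSX1, SSX4B A_23_P33881 and XAGE3 passed the filter only through the RPMI-8226 combination group. Of the 2, MAGEB18 passed it only through the MM.1S groups with UNC0638. The direction of these was favoured in advance. Without 1 array the 14 calls fell to as few as 7 (DMSO replicate 1 of MM.1S), and the 5 for UNC0638 to 1 (the same array, or UNC0638 replicate 2 of MM.1S). With the replicate number as a block these were 2 for GSK126, 7 and 2 for UNC0638, and 13 and 2 for the combination, with 1.79%, 5.42% and 19.2% of all probes called. PAGE2, PAGE2B and MAGEA6 A_33_P3342375 rose in RPMI-8226 and fell in MM.1S with both inhibitors, and MAGEC3, at background in RPMI-8226, rose in MM.1S. For SSX1, XAGE1A and SSX4B the MM.1S arrays were at background throughout, so a fall there could not have been measured.

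**Figure D4:**
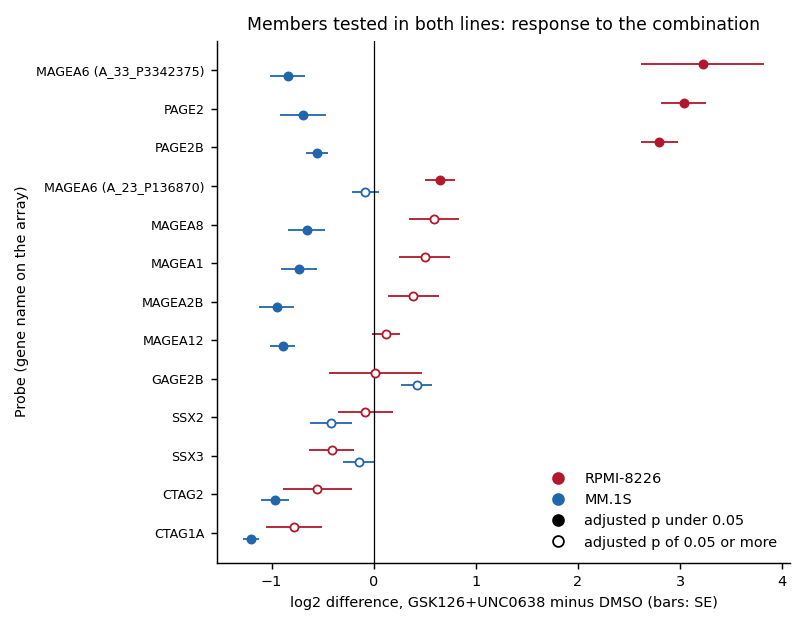
Log2 difference between both inhibitors and DMSO with its standard error (horizontal axis) for the 13 family probes tested in both lines, with RPMI-8226 in red and MM.1S in blue, filled at an adjusted p under 0.05. PAGE2, PAGE2B and MAGEA6 A_33_P3342375 lie above 2 in RPMI-8226 and below 0 in MM.1S, and CTAG1A and CTAG2 lie below 0 in both, called in MM.1S only.

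Replicates of some RPMI-8226 members lay far apart in the same direction in all 4 groups. MAGEB2 read -0.55 and -2.99 with DMSO, -0.67 and -2.37 with GSK126, -0.62 and -2.38 with UNC0638, and 0.15 and -1.91 with both, in replicates 1 and 2. Replicate 1 was thus the higher by 1.70 to 2.44 on the log2 scale. CT45A1 A_21_P0013834 was higher in replicate 2 by 0.91 to 2.05, MAGEA10 by 1.06 to 1.56 and GAGE7 by 0.77 to 0.90. MAGEA10 read -5.25 and -3.69 with DMSO, -4.25 and -2.90 with GSK126, -3.88 and -2.59 with UNC0638, and -2.57 and -1.51 with both. It rose within both replicates, and its adjusted p for the combination was 0.0793 without and 0.00058 with the replicate number as a block (limma).

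CTAG1A and CTAG2, measured on all arrays, were lower on the combination arrays of RPMI-8226. CTAG1A read 5.93 and 5.24 with DMSO and 4.86 and 4.75 with both, a log2 difference of -0.78 (SE 0.27) with an adjusted p of 0.11, or 0.0274 with the block (limma). CT45A1 A_21_P0013834 read -1.93 and 0.12 with DMSO and -2.71 and -1.80 with both, and passed only with the block (adjusted p = 0.346 without and 0.0325 with it, limma). CTAG2 read 4.01 and 3.39 with DMSO and 3.28 and 3.02 with both and was not called.

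The GAGE probes differed more between replicates than between treatments of RPMI-8226. GAGE2B read 4.25 and 5.11 with DMSO, 4.33 and 5.19 with GSK126, 4.43 and 5.18 with UNC0638, and 4.33 and 5.06 with both. GAGE7 read 2.96 and 3.86 with DMSO and 2.68 and 3.45 with both. MAGEA1 read 2.38 and 2.61 with DMSO and 2.84 and 3.15 with both. None of these was called in RPMI-8226 in the fit without the replicate block, and what differed between the replicates was not tested.

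**Figure D5:**
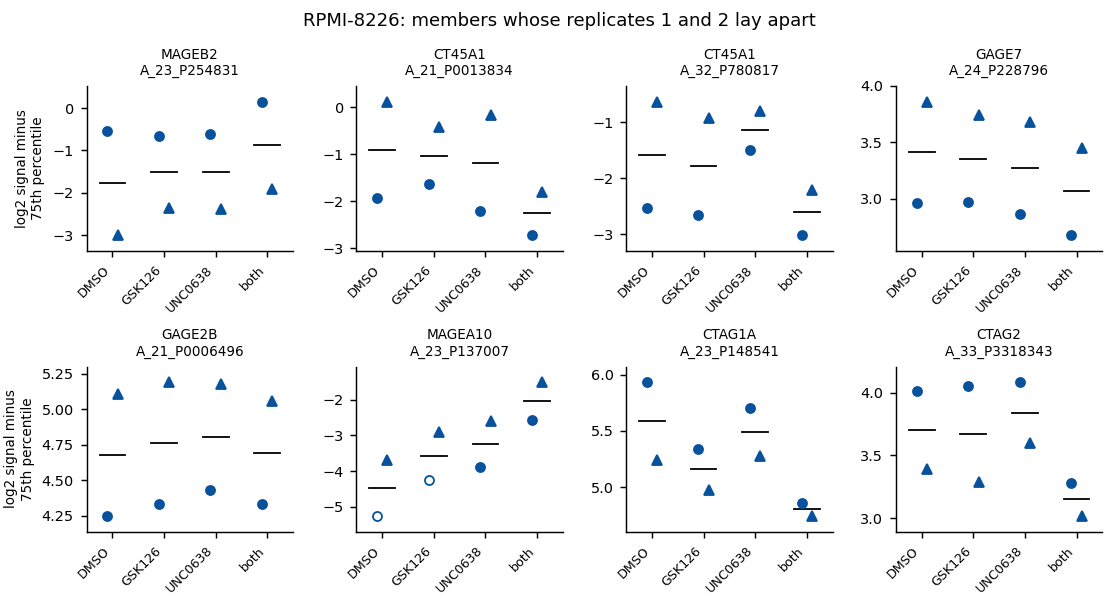
Log2 signal minus the array's 75th percentile (vertical axes, 1 panel a probe, scales differ) in RPMI-8226 by treatment, with replicate 1 as circles and replicate 2 as triangles, for members whose replicates lay apart. In the MAGEB2 panel the circles lie above the triangles in every treatment, and in the CT45A1, GAGE7 and MAGEA10 panels the triangles lie above the circles.

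Related genes outside the families were read from lists of other cancer-testis genes, type II MAGE genes, promoter regulators and ubiquitin ligase partners. Among 13 tested other cancer-testis genes in RPMI-8226, 1 was higher and 1 lower with both inhibitors. SPANXA1, a testis gene of the X chromosome, was at least 25.3-fold higher (adjusted p = 0.00681, limma), and TEX19, a germ cell gene, was 4.86-fold lower (adjusted p = 0.00181, limma). In MM.1S 3 of 11 were higher and 4 lower, with IL13RA2, an interleukin-13 decoy receptor, at least 4.58-fold higher (adjusted p = 0.00179, limma). TEX19 fell there too, by 3.39 on the log2 scale (adjusted p = 0.000676, limma), with 1 of 2 combination arrays at background. Of all tested probes, 7.2% were higher and 5.17% lower in RPMI-8226, and 22.2% higher and 31.7% lower in MM.1S. The medians of this list were 0.12 and 0.29 on the log2 scale, against -0.13 and -0.12 for all tested probes.

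Type II MAGE genes, which are expressed in many adult tissues, gave 1 call of 6 tested in each line, MAGED2 at 1.66-fold in RPMI-8226 (adjusted p = 0.0171, limma) and MAGED1 in MM.1S. Of the regulators of cancer-testis promoters, 1 of 27 was lower in RPMI-8226 with both inhibitors, PCGF6 of a Polycomb complex. In MM.1S 14 of 28 were lower and 3 higher, where 31.7% and 22.2% of all tested probes were, among the lower ones UHRF1 and DNMT1, the pair that copies DNA methylation at replication, by 1.35 and 0.63 on the log2 scale (adjusted p = 0.000469 and 0.00153, limma). DNMT3A, which methylates DNA anew, rose 2.43-fold in MM.1S (adjusted p = 0.00083, limma). Of the ubiquitin ligase partners, 1 of 9 was higher and 1 lower in RPMI-8226, and 2 of 10 were higher and 5 lower in MM.1S, beside the same shares of all probes. PJA1, a ligase that binds MAGE proteins, was higher in both lines, by 4.23-fold (adjusted p = 0.0246, limma) and by 1.46-fold (adjusted p = 0.00328, limma).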

How the data were processed

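RNA of 16 samples, 2 biological replicates in each of 8 groups, was hybridised by the authors to one-colour Agilent SurePrint G3 Human GE v2 arrays, whose probes are placed on GRCh37. Per the file headers, Feature Extraction (10.7, in the submitters' processing notes) had subtracted background and detrended each array, and the deposited values are processed intensity with flags for signal well above background. No normalization or test for the arrays is given in the sources used here. The authors' table of the whole series holds the same intensity values to rounding.

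Control and outlier spots were left out and spots of a probe averaged. Log2 intensity minus the array's 75th percentile was fitted with limma 3.58.1 in R 4.3.3 (lmFit, eBayes), within each line on 4 groups, or over all 16 arrays for comparisons between lines. Probes measured above background in the 2 arrays of 1 group or more were tested, and p-values were adjusted over all of them (Benjamini-Hochberg, threshold 0.05). The script was tested on simulated data. A probe counted as well above background where at least a share of 0.5 of its spots was flagged so. For a group not above background, the fold is a bound, from the other group's mean over the higher, on each array, of the lowest measurable signal and the probe's own.

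Members and lists were chosen with earlier results of these data known. Named with values were SSX1, members called against DMSO (at most 10 per comparison), the 5 members highest in each DMSO group (a rule for naming, not a comparison of probes), members whose response differed between lines, and known tumour antigens. Gene names are those of the array, and 63 of 77 probes matched a RefSeq transcript. Promoter windows are from RefSeq (GRCh38.p14) and were not mixed with GRCh37 coordinates.

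Same-numbered replicates deviated together in RPMI-8226, with correlations of 0.254 to 0.415 between groups, so the fit with the replicate number as a block is given beside its results. In MM.1S the correlations were 0.0847 to 0.225, and the numbers were not taken as pairs. The number also marks the row of the slide, and treatment and slide column cannot be told apart. Alternatives were quantile normalization, the percentile over probes measured on all arrays, normexp background correction (offset 50), other filters, a trended prior, 1 fit over all arrays, the authors' table, and leaving out each array. The small number of arrays limits the precision.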

Additional observations from a re-analysis of the deposited data

Results flagged for a closer look

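The following members were singled out because the test of the difference between the lines' responses passed in limma (adjusted p under 0.05), given as the RPMI-8226 response minus the MM.1S response on the log2 scale. With UNC0638 alone, MAGEA6 A_33_P3342375 differed by 3.75, PAGE2 by 1.58, PAGE2B A_33_P3420862 by 1.14 and MAGEA6 A_23_P136870 by 0.87. In the other direction, MAGEC3 differed by -2.11. The calls for PAGE2 and PAGE2B were lost under normexp background correction (0.41 and 0.40) and with no filter.

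With both inhibitors the PAGE genes differed by 3.73 (PAGE2) and 3.35 (PAGE2B A_33_P3420862), rising in RPMI-8226 and falling in MM.1S. MAGEA6 A_33_P3342375 differed by 4.07 in the same way, and MAGEA6 A_23_P136870 by 0.73. SSX4B A_23_P33881 differed by 4.51, SSX1 by 3.83, XAGE3 by 3.39 and XAGE1A by 1.997. Of these, SSX1, SSX4B and XAGE1A were at background on all MM.1S arrays and XAGE3 on all but 3, and SSX1, SSX4B and XAGE3 also with DMSO in RPMI-8226. Their sizes therefore rest on signal at background and moved with its treatment, from 1.35 to 4.78 for SSX4B, from 1.21 to 3.84 for SSX1 and from 0.75 to 3.51 for XAGE3, and the call for SSX4B was lost with no filter.

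For MAGEA2B A_33_P3411165 (1.34), MAGEA8 (1.25), MAGEA1 (1.23) and MAGEA12 (1.01), the probes fell in MM.1S and were not called in RPMI-8226. MAGEB18 (-2.28) and MAGEC3 (-1.87) rose in MM.1S and were at background on all RPMI-8226 arrays. Across the alternatives MAGEB18 ranged from -2.36 to -0.39, its call lost with quantile normalization, normexp correction and no filter, and MAGEC3 from -1.95 to -1.28 with its call kept. Line and slide cannot be told apart in these comparisons.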

How the results depend on the processing

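Counts are of members called in either direction. A block for replicate number gave, in RPMI-8226, 2 calls for GSK126 and 6 for UNC0638, and for both inhibitors 18 against DMSO, 12 against GSK126 and 8 against UNC0638. In MM.1S the block gave 5 for the combination against UNC0638, and the differences in response gave 2 for GSK126 and 9 for UNC0638. In MM.1S same-numbered arrays share a slide row and deviated together more weakly than in RPMI-8226 (correlations of 0.0847 to 0.225). The block moved no other count of calls by over 1.5 times. With a filter for signal above background on all arrays, RPMI-8226 gave 6 calls for the combination against DMSO, 1 against GSK126 and 0 against UNC0638 (limma), since fewer probes were tested. The same filter gave 1 for the combination against UNC0638 in MM.1S, 10 between the DMSO groups, and 2 (UNC0638) and 7 (combination) for the differences in response.

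With no filter, GSK126 in MM.1S gave 0 and the UNC0638 difference in response 2. In 1 fit over all 16 arrays, RPMI-8226 gave 2 for GSK126 and 1 for UNC0638, and MM.1S gave 0 and 6. A trended prior gave 2 for UNC0638 in RPMI-8226, 2 for GSK126 in MM.1S and 4 for the combination against UNC0638 there. Quantile normalization gave 0 for GSK126 in MM.1S, 3 for the combination against UNC0638 there and 1 for the GSK126 difference in response. With normexp background correction these last were 3 and 1, UNC0638 in RPMI-8226 gave 3, and XAGE3 between the DMSO groups turned from lower to higher in RPMI-8226 (0.19 on the log2 scale), both groups being at background. The cause of these changes was not tested.

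On leaving out each array in turn, counts in RPMI-8226 were 0 to 0 for each inhibitor alone, 6 to 10 for the combination, 3 to 6 against GSK126 and 4 to 6 against UNC0638. In MM.1S they were 0 to 2 for GSK126, 4 to 9 for UNC0638, 10 to 13 for the combination, 6 to 9 against GSK126 and 0 to 1 against UNC0638. Between the DMSO groups they were 21 to 25, and for the differences in response 0 to 1, 1 to 6 and 7 to 15. Over 98 called results of single members and 1919 alternatives, 1647 kept direction and call, 271 lost the call and 1 changed direction. Scaling by probes measured on all arrays moved the median of all probes for the combination from -0.13 to 0.01 in RPMI-8226 and from -0.12 to 0.10 in MM.1S. Where leaving out an array lowered the counts for the combination in RPMI-8226, calls over all tested probes fell as well. Signal near background limits the SSX4B, XAGE3 and MAGEB18 folds, which under normexp were smaller.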
